A study of Mus musculus with 12 samples.

Results

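The tricarboxylic acid (TCA) cycle was examined through 9 of its enzyme genes in sorted mouse alveolar type 2 (AT2) cells, the surfactant-producing cells that also act as progenitors of the alveolar epithelium. The genes were *Pdha1*, which feeds the cycle, and *Cs*, *Idh2*, *Idh3a*, *Ogdh*, *Sucla2*, *Suclg1*, *Fh1* and *Mdh2*, which belong to it. They were chosen by name, were all found among the 21878 genes of the deposited table, and all 9 passed the filter on low values with which 10675 genes were tested. All 9 carry the citrate cycle annotation of the KEGG pathway database in the table, as do 33 genes in all.

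RNA was sequenced from 4 groups of 3 samples. AT2-PBS and AT2-BLM were AT2 cells of Atg5 f/f mice, labelled wild type, given PBS or intratracheal bleomycin (BLM, 2 U/kg), a drug that injures the alveolar epithelium. Atg5-/- AT2-PBS and Atg5-/- AT2-BLM were AT2 cells of Nkx2.1Cre;Atg5 f/f mice under the same 2 treatments, in which Cre driven by *Nkx2.1* in the lung epithelium deletes *Atg5*, a gene needed for autophagosome formation. The labels give the strain as C57BL/6, and the methods name male mice of 8 to 12 weeks for BLM injury, and day 14 after BLM. No day is named for Atg5-/- AT2-PBS. The sort kept EpCAM+ cells that lacked CD31, CD34, CD45, CD24 and Sca-1. Nothing in the labels says how many animals made up a sample, so the p-values measure the spread between these samples.

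The cycle runs in the mitochondrial matrix. It joins the acetyl group of acetyl-CoA to oxaloacetate to make citrate and oxidizes it stepwise back to oxaloacetate, passing electrons to the respiratory chain and yielding GTP or ATP at the succinyl-CoA step. Its intermediates also leave it, as citrate does for fatty acid synthesis in the cytosol, a route that AT2 cells use to make surfactant lipid.

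Values are FPKM, a measure of expression per transcript length and sequencing depth, as the authors deposited them. Fragment numbers behind them are unknown. From steps among low values, depths of the samples spanned 1 to 1.16 relative to the first AT2-PBS sample. *Sftpc*, a defining AT2 gene, was listed at 0 in 11 of 12 samples and at 112570 FPKM in AT2-BLM replicate 2, while the 8 AT2 markers together summed to at least 22956 FPKM in every sample. With PBS *Atg5* was listed at 6.01 to 12.5 FPKM in wild-type samples and at 6.72 to 10.1 FPKM in Atg5-/- samples, with overlap. With BLM it was at 9.97 to 11.1 FPKM in wild-type and at 8.37 to 8.84 FPKM in Atg5-/- samples, all of them lower. FPKM of the whole gene thus did not show an absence of its RNA. The Atg5-/- AT2-PBS samples stood apart in other cells' markers. Their 7 leukocyte markers summed to between 539 and 758 FPKM, against 6.62 to 42.6 in AT2-PBS. Their 5 fibroblast markers summed to between 87 and 97.4 FPKM, against 3.49 to 12.6, and their 5 airway markers to between 23132 and 84645 FPKM, against 4960 to 11756. Their 6 liver markers summed to between 1488 and 2553 FPKM, against 3.34 to 406. Their 5 cardiac muscle markers summed to between 10.8 and 64.7 FPKM, against 0.96 to 3.00. Expression of 4 Y-linked genes summed to under 1 FPKM in 7 of the 12 samples (with PBS, 1 wild-type and 3 Atg5-/- samples, and with BLM, 2 and 1) and to between 14.2 and 20.9 FPKM in the other samples, although the methods name male mice. In these bulk samples, fewer cells of a type and less RNA per cell cannot be told apart.

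Stretches of promoter were read for the genes that carry the BLM response described below, to show what lies before genes that moved in different directions. RefSeq windows of 250 bases before the annotated start (GRCm38.p6) were found for 8 of the 9 genes, all but *Idh3a*, and each window matched 1 place in the mm9 genome (NCBIM37). Only the part before the gene's start in the mm9 annotation is printed, 5′ to 3′ on the gene's strand. Capitals mark a GC box (GGGCGG) or a CCAAT box (CCAAT) on either strand, which appear as CCGCCC and ATTGG when reversed. The coordinates are chr1:177555767-177556016 (minus strand) for *Fh1*, chr5:136254269-136254349 (plus) for *Mdh2*, chr10:127774533-127774782 (plus) for *Cs* and chr6:73198249-73198375 (plus) for *Suclg1*.
Fh1: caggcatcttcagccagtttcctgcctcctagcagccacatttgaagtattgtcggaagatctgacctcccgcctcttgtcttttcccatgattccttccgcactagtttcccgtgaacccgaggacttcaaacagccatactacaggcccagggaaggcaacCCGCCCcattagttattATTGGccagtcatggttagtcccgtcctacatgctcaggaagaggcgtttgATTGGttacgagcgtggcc
Mdh2: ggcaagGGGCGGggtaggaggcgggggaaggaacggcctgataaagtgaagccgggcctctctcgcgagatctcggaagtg
Cs: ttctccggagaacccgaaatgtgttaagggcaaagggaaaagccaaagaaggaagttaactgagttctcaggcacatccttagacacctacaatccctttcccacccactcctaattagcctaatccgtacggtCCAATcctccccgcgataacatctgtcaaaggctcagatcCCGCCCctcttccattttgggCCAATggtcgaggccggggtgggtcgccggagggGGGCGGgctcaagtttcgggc
Suclg1: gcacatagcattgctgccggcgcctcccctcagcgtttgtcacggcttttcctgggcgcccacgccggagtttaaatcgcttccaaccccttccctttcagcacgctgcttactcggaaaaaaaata

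A GC box lay in a window of 6 of the 8 genes (*Cs*, *Fh1*, *Idh2*, *Mdh2*, *Ogdh* and *Sucla2*) and in 32.7% of all 32851 windows, and a CCAAT box in a window of 4 (*Cs*, *Fh1*, *Idh2* and *Ogdh*) and in 33.8% of all. *Ogdh* had several windows, so it had more chances to hold a motif. The GC content of the windows was 55.2% for *Cs*, 52.8% for *Fh1*, 67.2% for *Idh2*, 63.2% for *Mdh2* and 61.2% for *Sucla2*. It was 53.2% for *Suclg1*, 61.6% for *Pdha1* and 50% to 74% for *Ogdh*, against a median of 52.4% over all windows. The part of GC content in the GC box counts was not tested. *Suclg1* and *Pdha1* held none of the motifs searched. The letters of an ETS site (CCGGAAG, in 6.91% of all windows), the palindromic NRF1 site (0.782%), an estrogen-related receptor element (TNAAGGTCA, 1.14%) and a YY1 site (AAGATGGCG, 0.606%) were found in 0 of the 8, and those of an E-box (CACGTG, 6.02%) in *Ogdh*. The GC box in *Cs*, *Fh1* and *Mdh2*, whose RNA rose with BLM, was also in *Idh2*, *Ogdh* and *Sucla2*, which were not called. By the mm9 annotation, however, the GC boxes of *Idh2* and *Sucla2* lie inside the genes, as do some of the *Ogdh* windows. These are matches of letters on either strand, not sites of binding.

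The 9 genes together took 0.121% to 0.196% of the FPKM of a sample. Their summed FPKM lay between 654 and 724 in AT2-PBS, between 727 and 840 in AT2-BLM, between 619 and 660 in Atg5-/- AT2-PBS and between 702 and 816 in Atg5-/- AT2-BLM. FPKM is per length, so levels of different genes can be set side by side. In AT2-PBS, *Mdh2* had the highest mean level, 199.6 ± 11.4 FPKM (SD, n = 3), followed by *Suclg1* at 173.8 ± 44.6 FPKM, whose range overlapped that of *Mdh2*. *Idh2* came next at 90.8 ± 5.39 FPKM, apart from both neighbours in the order. The other 6 genes lay between 30.7 and 44.8 FPKM on average, and each overlapped the next. In AT2-BLM *Mdh2* led alone, with 301.2 ± 34.3 FPKM against 115.8 ± 9.84 FPKM for *Suclg1*, and *Fh1* followed at 86.3 ± 12.1 FPKM, overlapping *Idh2* at 74.6 ± 16.3 FPKM.

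**Figure D1:**
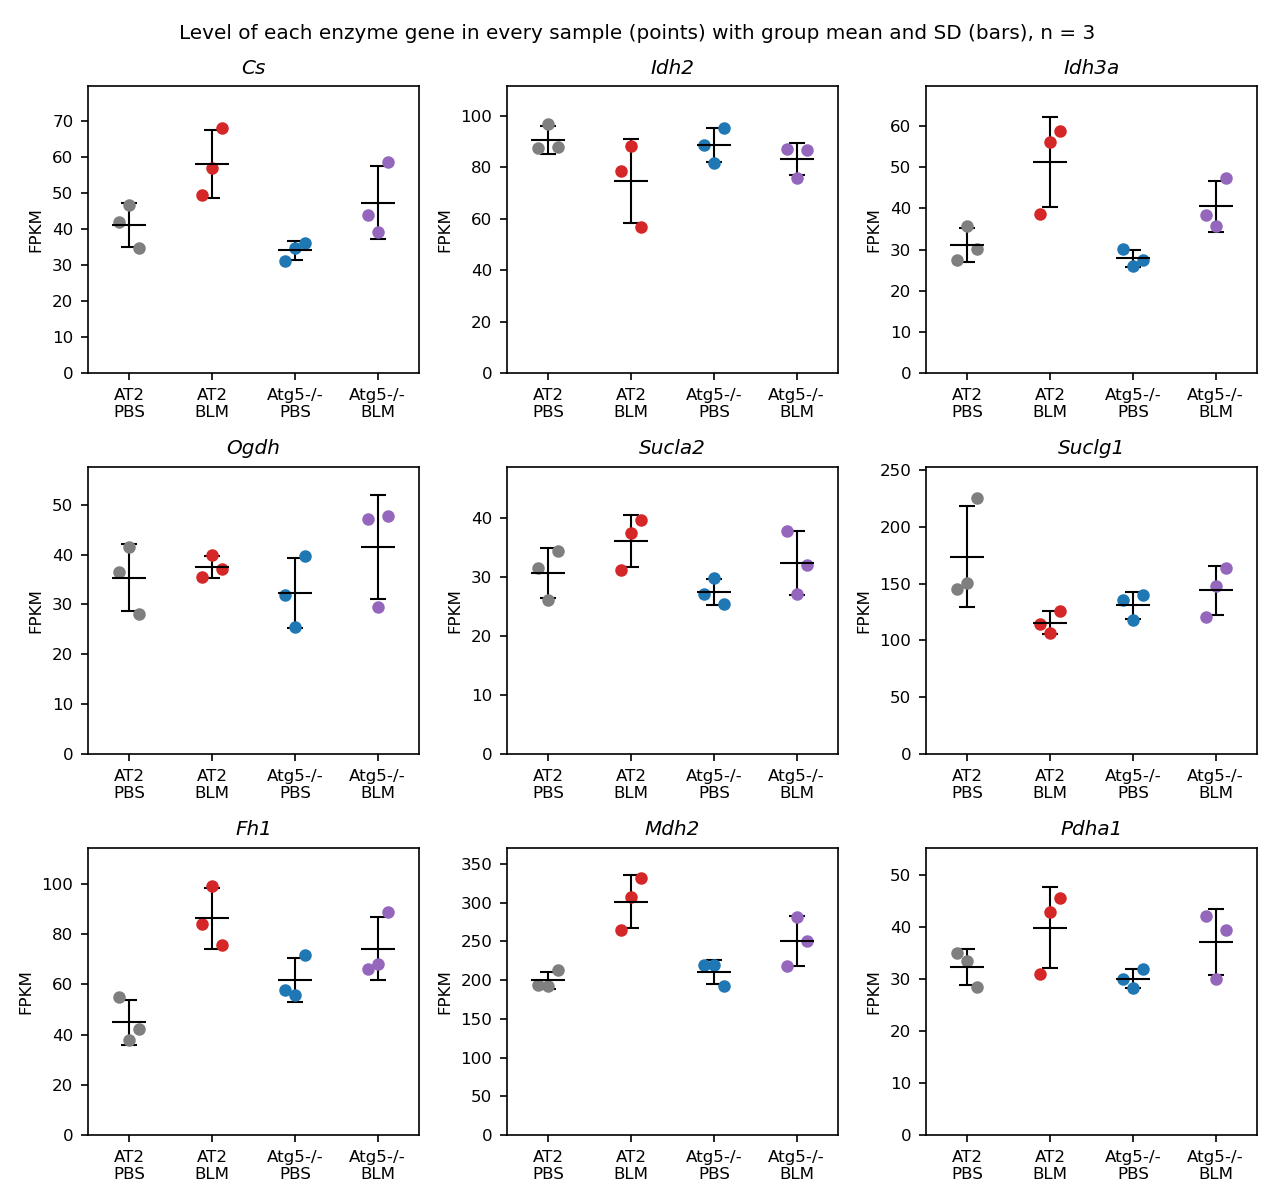
Level of each of the 9 enzyme genes in FPKM (y axis, from 0) in the 4 groups (x axis), with 1 point per sample and bars for the group mean and SD, n = 3. All 3 AT2-BLM points lie above all 3 AT2-PBS points for *Cs*, *Idh3a*, *Fh1* and *Mdh2*, and below them for *Suclg1*.

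The first comparison asked what BLM injury did to the cycle in AT2 cells with intact *Atg5*. RNA of *Fh1*, *Idh3a*, *Mdh2* and *Cs* was higher in AT2-BLM than in AT2-PBS, by 1.91-, 1.61-, 1.5- and 1.4-fold, and RNA of *Suclg1* was 1.47-fold lower. The other 4 genes were not called. A gene was called where p was under 0.05 without adjustment and the fold was 1.4 or more, as the study did, from a limma fit of log2(FPKM + 1) over all 12 samples. By that rule 4 of the 9 genes rose and 1 fell, where 28.4% of all genes tested were called, 20.6% higher and 7.77% lower. These were 2202 higher and 829 lower genes, a split that moved to 1235 and 1398 with quantile normalization, 1405 and 1355 with median-ratio scaling, 1263 and 1393 with a common sum and 986 and 1288 with scaling to *Cdh1*. The split of the 9 moved too. Under quantile normalization, the common sum and scaling to *Cdh1*, *Fh1* alone was called higher and *Suclg1* and *Idh2* were called lower. With a Benjamini-Hochberg adjusted p under 0.05 as well, 3 of the 9 stayed called (*Fh1*, *Idh3a* and *Mdh2*), against 17.4% of all genes. An unadjusted p under 0.05 was reached by 5 of the 9, against 34% of all genes, and in 5 of the 9 the samples of the groups did not overlap, against 40.2%. The median log2 change of the 9 was 0.28, and that of all genes tested was 0.17. Relative to the latter, the changes were 0.76 for *Fh1*, 0.51 for *Idh3a*, 0.41 for *Mdh2*, 0.31 for *Cs* and -0.73 for *Suclg1*. In this contrast 5 of 6 leukocyte markers tested and 5 of 6 liver markers were called higher, as were 2 of 5 markers of alveolar type 1 cells, 1 of 2 endothelial and 1 of 2 erythroid markers, and 4 of 4 airway markers were called lower, and their part in these results was not tested. Liver, cardiac muscle and brown fat were listed as tissues rich in cycle enzymes. The 6 liver markers summed to 161 to 561 FPKM in AT2-BLM and to 3.34 to 406 FPKM in AT2-PBS. Cardiac muscle had 0 of 3 markers called by limma, and the 3 brown fat markers summed to at most 0.39 FPKM in AT2-BLM.

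*Pdha1* encodes the E1 alpha subunit of pyruvate dehydrogenase, which turns pyruvate into acetyl-CoA, and lies on chromosome X from 156560141 to 156576345 (mm9, minus strand, gene ID 18597). It was at 35.1, 33.5 and 28.4 FPKM in the AT2-PBS samples, in order of replicate, and at 31.0, 42.9 and 45.6 FPKM in AT2-BLM. The ranges overlapped through AT2-BLM replicate 1, and the log2 change of 0.28 (95% interval -0.10 to 0.66) was not called. Around it, 2 of the 13 genes of pyruvate entry rose and 3 fell, where 20.6% of all genes tested were called higher and 7.77% lower. *Dlat*, the E2 core of the same complex, rose from 10.1 ± 1.72 to 17.9 ± 2.89 FPKM (log2 change 0.77 ± 0.18 SE, limma adjusted p = 0.015), and *Mpc1*, a subunit of the mitochondrial pyruvate carrier, from 18.4 ± 1.13 to 27.2 ± 1.62 FPKM (0.54 ± 0.12, limma adjusted p = 0.014). The call of *Mpc1* was lost under the 4 other scalings (0.31 to 0.35). *Pdhb*, the E1 beta partner of *Pdha1*, had a log2 change of 0.44 and *Dld*, the E3 subunit, of 0.30, and neither was called. The genes that fell were regulators of the complex. *Pdk1* and *Pdk2*, kinases that inactivate it, fell by 1.05 and 1.02 on the log2 scale (limma adjusted p = 0.044 and 0.013), and *Pdp2*, a phosphatase that reactivates it, fell by 1.08 (limma adjusted p = 0.015). *Pdk2* went from 45.5 ± 3.57 to 21.9 ± 2.31 FPKM, while *Pdp2* stood at only 3.45 ± 0.64 FPKM in AT2-PBS.

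*Cs*, on chromosome 10 from 127774888 to 127799535 (plus strand, gene ID 12974), encodes citrate synthase, the enzyme of the cycle's first step. It was at 41.8, 46.6 and 34.6 FPKM in AT2-PBS and at 49.3, 56.7 and 67.8 FPKM in AT2-BLM. Every AT2-BLM sample was higher, by a narrow gap between AT2-PBS replicate 2 and AT2-BLM replicate 1. The log2 change was 0.49 ± 0.18 (limma adjusted p = 0.080), just past the fold limit, and *Cs* lost its call under every scaling of the samples that was tried and without AT2-PBS replicate 3 (0.37) or AT2-BLM replicate 3 (0.37).

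Isocitrate is oxidized in mitochondria by the NAD-linked enzyme, made of *Idh3a*, *Idh3b* and *Idh3g* products, or by the NADP-linked *Idh2*. *Idh3a*, the catalytic subunit (chromosome 9 from 54434288 to 54452468, plus strand, gene ID 67834), was at 27.5, 35.7 and 30.2 FPKM in AT2-PBS and at 38.7, 56.1 and 58.9 FPKM in AT2-BLM. All 3 AT2-BLM samples exceeded all 3 AT2-PBS samples, and the log2 change was 0.69 ± 0.18 (limma adjusted p = 0.024). The call was lost with quantile normalization (0.44), a common sum (0.46) and scaling to *Cdh1* (0.45). *Idh2* (chromosome 7 from 87239732 to 87260278, minus strand, gene ID 269951) was at 87.6, 97.0 and 87.8 FPKM in AT2-PBS and at 78.8, 88.4 and 56.6 FPKM in AT2-BLM. AT2-BLM replicate 3 was the lowest and replicate 2 lay within the AT2-PBS range, and the log2 change of -0.30 (95% interval -0.65 to 0.05) was not called, although it was called lower (-0.49 to -0.54) under each of the 4 other scalings. The partners *Idh3b* and *Idh3g* had log2 changes of 0.25 and -0.05, neither called. Ratios within a sample do not change when all its values are scaled by a common factor. Quantile normalization is not such a factor, and the ratios were not tested under it. *Idh3a* to *Idh2* was 0.314, 0.368 and 0.344 in AT2-PBS and 0.491, 0.634 and 1.04 in AT2-BLM, a 2.01-fold higher geometric mean, and *Idh3a* to the mean of *Idh3b* and *Idh3g* rose in geometric mean from 0.477 to 0.752. In both ratios the groups did not overlap, with an exact two-sided permutation p of 0.1, the smallest that 3 samples against 3 allow.

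*Ogdh* encodes the E1 subunit of the 2-oxoglutarate dehydrogenase complex (chromosome 11 from 6191636 to 6256645, plus strand, gene ID 18293). It was at 36.5, 41.5 and 28.2 FPKM in AT2-PBS and at 35.4, 39.8 and 37.1 FPKM in AT2-BLM. The AT2-BLM samples lay inside the range of AT2-PBS, and the log2 change of 0.10 (95% interval -0.38 to 0.57) was not called and took either sign across the scalings. *Dlst*, the E2 subunit of the same complex, rose from 16.5 ± 1.46 to 28.8 ± 4.49 FPKM (0.76 ± 0.20, limma adjusted p = 0.025), with all 3 AT2-BLM samples above AT2-PBS, and lost its call with scaling to *Cdh1* (0.53).

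Succinyl-CoA ligase pairs the alpha subunit *Suclg1* with *Sucla2* to make ATP or with *Suclg2* to make GTP. *Suclg1* (chromosome 6 from 73198376 to 73226905, plus strand, gene ID 56451) was at 145.5, 150.7 and 225.2 FPKM in AT2-PBS and at 114.6, 106.6 and 126.2 FPKM in AT2-BLM. All AT2-BLM samples were lower, and AT2-PBS replicate 3 stood far above the other AT2-PBS samples. The log2 change was -0.56 ± 0.18 (limma adjusted p = 0.054). Without AT2-PBS replicate 3 it was -0.36, and the call was lost, as it was in a fit that included Y-linked expression (-0.48). *Sucla2* (chromosome 14 from 73925126 to 73995949, plus strand, gene ID 20916) was at 31.5, 26.2 and 34.5 FPKM in AT2-PBS and at 31.3, 37.6 and 39.7 FPKM in AT2-BLM. The ranges overlapped and the log2 change of 0.23 (95% interval -0.12 to 0.58) was not called, nor was that of *Suclg2* (0.13). Within samples, *Suclg1* to the sum of both beta subunits was 3.46, 4.43 and 5.24 in AT2-PBS and 2.75, 2.30 and 2.52 in AT2-BLM, a 1.71-fold lower geometric mean with no overlap (exact permutation p = 0.1).

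Succinate dehydrogenase, the step that is also complex II of the respiratory chain, has no gene among the 9. Of its 4 subunits, *Sdhd* rose from 113.9 ± 4.44 to 170.8 ± 38.7 FPKM (0.56 ± 0.17, limma adjusted p = 0.044), and lost its call under the 4 other scalings and without AT2-BLM replicate 3. *Sdha*, *Sdhb* and *Sdhc* had log2 changes of 0.30, 0.44 and 0.34 and were not called, though their AT2-BLM samples did not overlap AT2-PBS. Among the 10 cycle genes beside the 9, 2 rose (*Dlst* and *Sdhd*) and 0 fell by the limma rule, with a median log2 change of 0.32. Over all genes tested 20.6% were called higher and 7.77% lower, with a median of 0.17, so the count called higher was near that share.

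*Fh1*, fumarase (chromosome 1 from 177530505 to 177555766, minus strand, gene ID 14194), hydrates fumarate to malate. It was at 54.8, 37.7 and 42.1 FPKM in AT2-PBS and at 83.9, 99.4 and 75.5 FPKM in AT2-BLM. The lowest AT2-BLM sample stood well above the highest AT2-PBS sample. The log2 change of 0.94 ± 0.18 (limma adjusted p = 0.0066) was the largest of the 9 and kept its call in 17 of 18 alternatives, the exception being a fold limit of 2. *Mdh2*, mitochondrial malate dehydrogenase (chromosome 5 from 136254350 to 136266268, plus strand, gene ID 17448), closes the cycle and takes part in the malate-aspartate shuttle. It was at 194.0, 192.0 and 212.7 FPKM in AT2-PBS and at 264.4, 307.0 and 332.4 FPKM in AT2-BLM. Again no AT2-BLM sample reached down to AT2-PBS. The log2 change was 0.59 ± 0.14 (limma adjusted p = 0.017). It stayed positive at 0.30 to 0.39 under the 4 other scalings, below the fold limit.

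**Figure D2:**
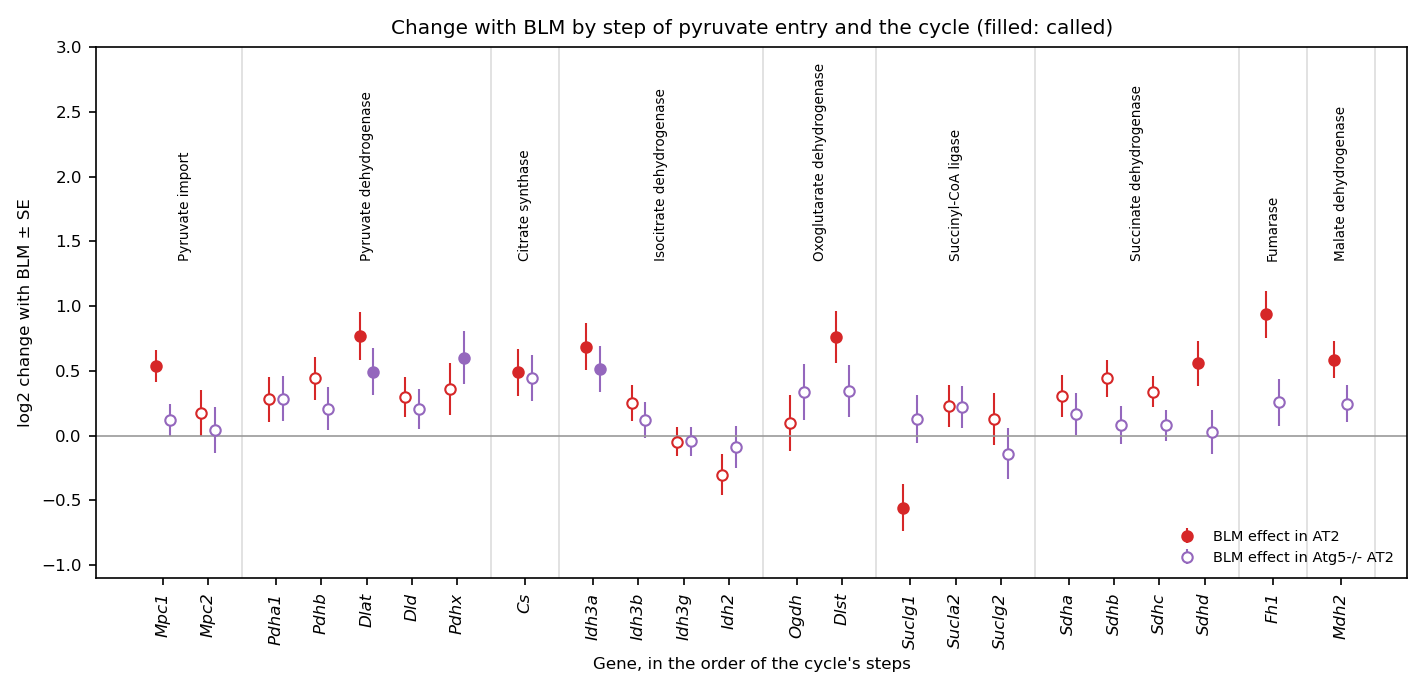
Log2 change with BLM (y axis, ± SE from limma) for the genes of pyruvate entry and of steps of the cycle (x axis), in red for AT2-BLM against AT2-PBS and in purple for Atg5-/- AT2-BLM against Atg5-/- AT2-PBS, with filled points for called genes. The red points for *Mpc1*, *Dlat*, *Cs*, *Idh3a*, *Dlst*, *Sdhd*, *Fh1* and *Mdh2* are filled above 0 and that of *Suclg1* is filled below it, while among the 9 genes the only filled purple point is *Idh3a*.

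Genes that exchange carbon with the cycle were also counted in this contrast. Of 12 anaplerosis and carrier genes tested (of 14 listed), 6 rose and 0 fell by the limma rule. Of all genes tested, 20.6% were called higher and 7.77% lower. *Pck2*, *Got2*, *Me2* and *Slc25a13* lost their calls under the 4 other scalings (0.26 to 0.52). Over all 18 alternatives the call of *Me2* was lost in 10 and that of *Slc25a13* in 14. *Got1*, the cytosolic aspartate aminotransferase of the malate-aspartate shuttle, rose from 6.81 ± 2.34 to 20.4 ± 7.97 FPKM (log2 change 1.44 ± 0.27, limma adjusted p = 0.0061), and *Pcx*, pyruvate carboxylase, which makes oxaloacetate, from 30.6 ± 5.47 to 67.3 ± 17.6 FPKM (1.09 ± 0.36, limma adjusted p = 0.053), though not with scaling to *Cdh1* (0.86). Of 6 genes of cytosolic counterparts and citrate use, *Aco1* and *Me1* rose (0.60 and 0.62) and *Acly*, which splits exported citrate into acetyl-CoA for lipid synthesis, fell by 0.79 on the log2 scale (limma adjusted p = 0.062). *Aco1* and *Me1* lost their calls under the 4 other scalings (0.36 to 0.43) and without AT2-BLM replicate 3 (0.43 and 0.49), *Me1* also without AT2-PBS replicate 2 (0.37), and *Acly* without AT2-PBS replicate 2 (-0.67) or AT2-BLM replicate 3 (-0.66). *Cs* to *Acly* was 0.179, 0.187 and 0.214 in AT2-PBS and 0.371, 0.424 and 0.673 in AT2-BLM, a 2.45-fold higher geometric mean with no overlap (exact permutation p = 0.1). Of 6 lipoylation and succinate dehydrogenase assembly genes tested (of 7), *Lipt2*, *Sdhaf4* and *Sdhaf2* rose (1.31, 0.67 and 0.59), and of 6 regulators tested (of 8), *Esrra* and *Hif1a* rose (0.71 and 0.63). Under the 4 other scalings *Sdhaf4*, *Sdhaf2* and *Hif1a* lost their calls (0.37 to 0.48), *Hif1a* also without AT2-PBS replicate 3 (0.47), AT2-BLM replicate 2 (0.64) or AT2-BLM replicate 3 (0.49), and *Esrra* lost its call with a common sum (0.51) or *Cdh1* (0.48). *Lipt2* was low, at 1.13 ± 0.85 FPKM in AT2-PBS. Of 3 isoforms and relatives tested (of 7), limma called 0, and 0 had an adjusted p under 0.05. The ratios numbered 10, and over 40 ratio comparisons in all the lowest adjusted exact p was 0.36. Of the 10, 4 had no overlap between AT2-BLM and AT2-PBS, those already given.

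**Figure D3:**
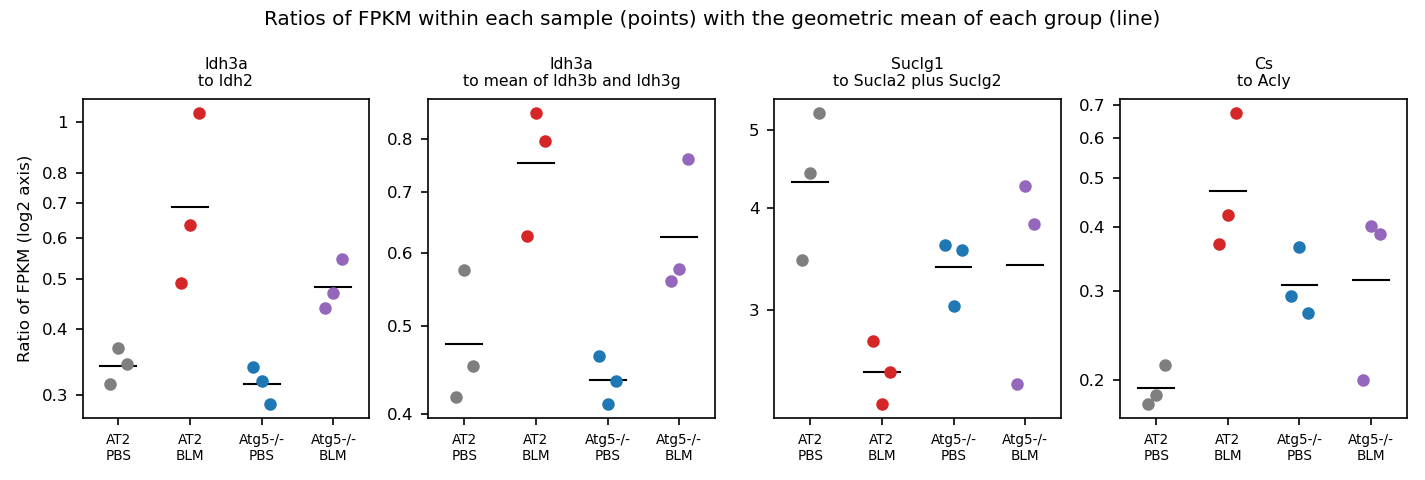
Ratios of FPKM within each sample (y axis, log2 scale) in the 4 groups (x axis), 1 point per sample with a line at the geometric mean, for *Idh3a* to *Idh2*, *Idh3a* to the mean of *Idh3b* and *Idh3g*, *Suclg1* to *Sucla2* plus *Suclg2*, and *Cs* to *Acly*. In each panel the AT2-BLM points do not overlap the AT2-PBS points, and in the panels of *Idh3a* the Atg5-/- AT2-BLM points also stand clear of Atg5-/- AT2-PBS.

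The second comparison followed the BLM response in Atg5-/- AT2 cells. Here 1 of the 9 genes was called, *Idh3a*, which was higher, where 18.4% of all genes tested were called and 7.66% were called higher. It was at 30.1, 26.1 and 27.4 FPKM with PBS and at 38.3, 35.8 and 47.4 FPKM with BLM in these Atg5-/- cells, with no overlap. The log2 change was 0.51 ± 0.18 (limma adjusted p = 0.11), and the call was lost under 3 of the 4 other scalings (all but the common sum) and with the Y-linked covariate, and without Atg5-/- AT2-PBS replicate 2 or Atg5-/- AT2-BLM replicate 3. With adjusted p, limma called 0 of the 9, against 8.65% of all genes, and 2 of the 9 had an unadjusted p under 0.05, against 21.9%. The second was *Cs*, at 31.1, 34.7 and 36.1 FPKM with PBS and 43.9, 39.1 and 58.6 FPKM with BLM. Its samples did not overlap either, and its log2 change of 0.44 ± 0.18 (limma adjusted p = 0.17) was under the fold limit. These were 2 of 9 genes without overlap, where 24.9% of all genes tested had none. The median log2 change of the 9 was 0.26, and that of all genes was 0.06. With scaling to *Cdh1* the median of the 9 was -0.20, and that of all genes was -0.32.

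The genes of the last steps were not called here. *Fh1* was at 57.8, 55.8 and 71.9 FPKM with PBS and at 66.1, 68.0 and 88.7 FPKM with BLM in these Atg5-/- cells. The ranges overlapped and the log2 change was 0.26 (95% interval -0.14 to 0.65). *Mdh2* was at 219.2, 219.3 and 192.5 FPKM with PBS and at 218.5, 281.9 and 251.0 FPKM with BLM. Its ranges overlapped only through Atg5-/- AT2-BLM replicate 1, and its log2 change was 0.25 (-0.06 to 0.56).

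*Suclg1* was at 135.6, 117.7 and 140.2 FPKM with PBS and at 120.7, 148.0 and 163.7 FPKM with BLM in these Atg5-/- cells. Replicates 2 and 3 with BLM were the higher ones, and the log2 change was 0.13 (95% interval -0.27 to 0.52). *Sucla2* was at 27.2, 29.9 and 25.4 FPKM with PBS and at 37.9, 27.1 and 32.1 FPKM with BLM, a log2 change of 0.22 (-0.14 to 0.57) with overlap at replicate 2 with BLM. *Idh2* was at 88.9, 81.9 and 95.3 FPKM with PBS and at 87.1, 76.0 and 86.8 FPKM with BLM. These samples were intermingled, with a log2 change of -0.09 (-0.44 to 0.26). *Ogdh* was at 31.8, 25.5 and 39.6 FPKM with PBS and at 47.1, 29.4 and 47.8 FPKM with BLM. Replicate 2 was the lowest in both groups, and the log2 change was 0.34 (-0.14 to 0.81). *Pdha1* was at 30.0, 28.2 and 32.0 FPKM with PBS and at 42.0, 30.0 and 39.4 FPKM with BLM. Replicate 2 with BLM again lay in the PBS range, and the log2 change was 0.28 (-0.10 to 0.67).

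Within samples, *Idh3a* to *Idh2* was 0.339, 0.319 and 0.288 in Atg5-/- AT2-PBS and 0.440, 0.471 and 0.546 in Atg5-/- AT2-BLM, a 1.54-fold higher geometric mean without overlap (exact permutation p = 0.1). *Idh3a* to the mean of its partners went from 0.436 to 0.626 and *Mdh2* to cytosolic *Mdh1* from 1.85 to 2.41 in geometric mean, both without overlap. The fourth ratio without overlap was *Pdk4* to *Pdha1*, 10.4-fold lower with BLM. *Pdk4*, another kinase of pyruvate dehydrogenase, was at 3.00, 3.73 and 2.2 FPKM with PBS and 0.691, 0.226 and 0.259 FPKM with BLM, and fell by 1.51 on the log2 scale (limma adjusted p = 0.017). In pyruvate entry *Pdhx* and *Dlat* rose (0.60 and 0.49) and *Pdk4* was the 1 that fell, of 13. Of all genes tested, 7.66% were called higher and 10.7% lower here. *Pdhx* lost its call in 5 of 18 alternatives and *Dlat* in 8, among them scaling to *Cdh1* (0.19 and 0.07) and leaving out Atg5-/- AT2-PBS replicate 2 (0.50 and 0.44) or Atg5-/- AT2-BLM replicate 3 (0.47 and 0.40), and *Dlat* also without Atg5-/- AT2-PBS replicate 1 (0.42). Limma called 0 of the 10 other cycle genes and 1 of 12 anaplerosis genes, *Pcx* (0.91), a call lost with *Cdh1* (0.46), the Y-linked covariate (0.89) and without Atg5-/- AT2-PBS replicate 3 (0.73) or Atg5-/- AT2-BLM replicate 3 (0.44). *Aco1* and *Me1* rose again (0.74 and 0.75), but not with scaling to *Cdh1* (0.29 each). *Acod1*, which turns aconitate into itaconate in activated macrophages, fell by 3.64 (limma adjusted p = 9.8e-05), from 18.5, 22.2 and 9.48 FPKM to 0.165, 0.663 and 0.261 FPKM. Of the regulators *Myc* fell by 2.10. *Hif1a* was called at 0.55, a call lost in 13 of 18 alternatives (0.12 with *Cdh1*), among them leaving out Atg5-/- AT2-PBS replicate 1 or 2 (0.47 and 0.55) or Atg5-/- AT2-BLM replicate 1 or 3 (0.39 and 0.41). Beside these values, 6 of 6 leukocyte markers tested, 4 of 4 fibroblast markers, 4 of 4 airway markers, 4 of 6 liver markers and 2 of 3 cardiac muscle markers were called lower in the same contrast and 4 of 5 markers of alveolar type 1 (AT1) cells higher, and their part in it was not tested.

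**Figure D4:**
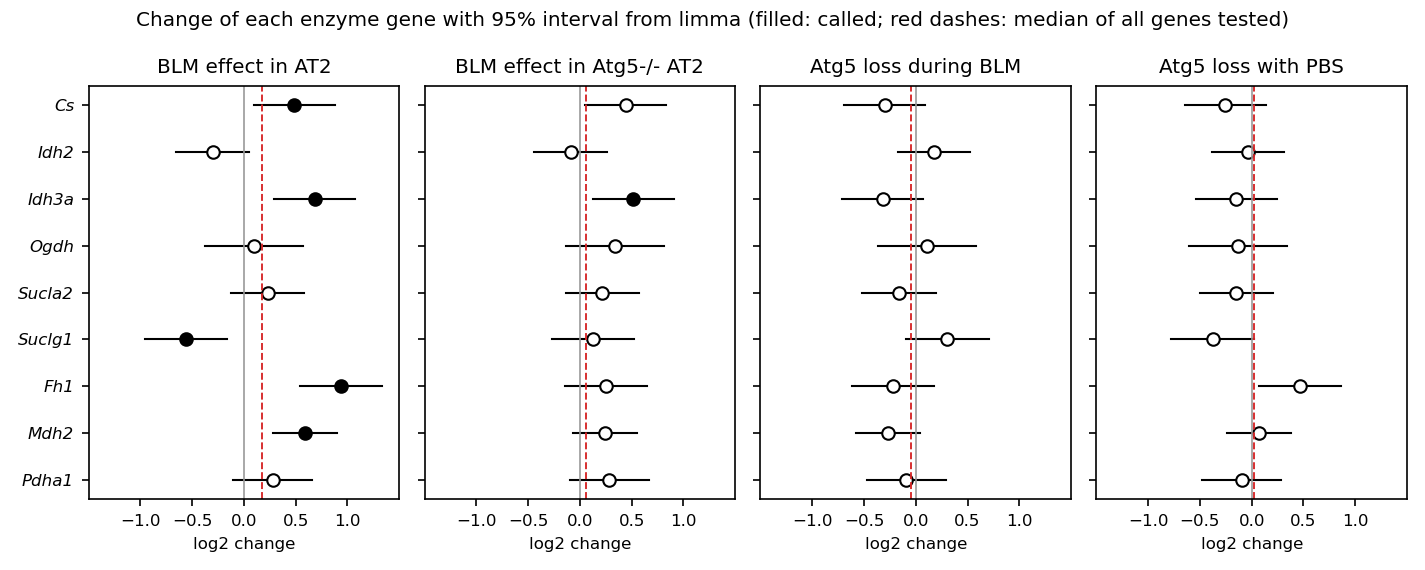
Log2 change (x axis) of each of the 9 genes (y axis) with its 95% interval from limma in the 4 comparisons, filled where called, with a red dashed line at the median of all genes tested. With BLM in AT2, 5 genes are filled and *Fh1* lies farthest right at 0.94, with BLM in Atg5-/- AT2 only *Idh3a* is filled, and in both comparisons of *Atg5* loss no point is filled.

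Whether the BLM response itself differed between genotypes was tested as an interaction, in which each of the 4 groups enters once. Of the 9 genes, 2 were called, where 20.2% of all genes were, 5.02% with a positive and 15.2% with a negative difference. With adjusted p limma called 0 of the 9, against 7.89% of all genes. The difference, Atg5-/- minus wild type, was -0.68 ± 0.26 for *Fh1* (limma adjusted p = 0.15) and 0.68 ± 0.26 for *Suclg1* (limma adjusted p = 0.14). *Fh1* had a log2 change with BLM of 0.94 in AT2 and 0.26 in Atg5-/- AT2, and *Suclg1* of -0.56 and 0.13. Part of each difference lay in the PBS samples, where on the deposited scale every Atg5-/- sample exceeded every wild-type sample in *Fh1* and lay below it in *Suclg1*. Neither passed the adjusted p, and both lost their call in a fit that included Y-linked expression (-0.54 and 0.44). With a common sum *Fh1* was at -0.29 and with quantile normalization at -0.43, and with scaling to *Cdh1* *Suclg1* was at 0.46, all without a call. *Fh1* was also lost without AT2-PBS replicate 2, Atg5-/- AT2-PBS replicate 3 or AT2-BLM replicate 2 (-0.57 each), and *Suclg1* without AT2-PBS replicate 3 (0.48), Atg5-/- AT2-PBS replicate 2 (0.61) or Atg5-/- AT2-BLM replicate 3 (0.59). The other 7 differences lay between -0.34 (*Mdh2*) and 0.24 (*Ogdh*), and the median of the 9 was -0.01, against -0.09 over all genes.

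Among the other genes, the interaction called *Got1* (-1.87 ± 0.39, limma adjusted p = 0.013), whose level was 9.03, 4.37 and 7.03 FPKM in AT2-PBS and 15.7, 20.7 and 14 FPKM in Atg5-/- AT2-PBS. It called *Acly* (1.21), *Pdp2* (0.97), *Pdk2* (0.73), *Pdk4* (-1.30), *Me2* (-0.97), *Lipt2* (-1.52), *Acod1* (-2.99) and *Myc* (-1.60) as well. Of these only *Acod1* had a limma adjusted p under 0.05 (0.0036). The call of *Pdk2* (limma adjusted p = 0.23) was lost in 15 of 23 alternatives, with 0.47 without Atg5-/- AT2-BLM replicate 1, that of *Myc* (0.17) in 9, with -1.09 without AT2-BLM replicate 3, and that of *Pdk4* (0.14) in 4, without AT2-PBS replicate 3 (-1.01) or AT2-BLM replicate 3 (-1.08) among them. In the interaction limma called 0 of the 10 other cycle genes, where 20.2% of all genes tested were called. All 6 leukocyte, all 4 fibroblast and all 6 liver markers tested were called in the same test with a negative difference. So were 2 of 4 airway, 2 of 2 erythroid, 2 of 5 AT1 and 1 of 3 cardiac muscle markers. Of 7 AT2 markers 2 were called with a positive and 1 with a negative difference. The part of these markers was not tested.

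The study's central question was what *Atg5* loss changed during BLM injury. For the cycle, the comparison of Atg5-/- AT2-BLM with AT2-BLM called 0 of the 9 genes by limma, where 5.16% of all genes tested were called (2.04% higher and 3.12% lower), and 0 of the 9 had an unadjusted p under 0.05, against 7.88%. With adjusted p limma called 0 of the 9 and 0.00937% of all genes. In 0 of the 9 were the groups without overlap, against 13.4%. The samples are those already given. Log2 changes lay between -0.32 for *Idh3a* (95% interval -0.71 to 0.07) and 0.31 for *Suclg1* (-0.09 to 0.70). *Mdh2* had -0.27 (-0.58 to 0.04), *Cs* -0.30 (-0.69 to 0.09) and *Fh1* -0.22 (-0.61 to 0.18). These intervals reach past the fold limit of 1.4 on 1 side for each of these 5 genes, so changes of that size could not be told from 0 with 3 samples a group. The median of the 9 was -0.16, and that of all genes -0.05. Without AT2-BLM replicate 1, in which *Idh3a* was lowest of its group, *Idh3a* was called lower (-0.50). Among the other genes limma called 0 of 10 cycle genes and 0 of 13 genes of pyruvate entry. *Dlat* (-0.43, limma adjusted p = 0.62), *Mpc1* (-0.38, limma adjusted p = 0.61) and *Sdhc* (-0.18, limma adjusted p = 0.73) had groups without overlap and were under the fold limit. *Got1* fell by 0.65 and *Myc* by 1.5 (limma adjusted p = 0.62 and 0.61). The call of *Got1* was lost in 8 of 18 alternatives, with -0.37 without AT2-BLM replicate 3. Of the 10 ratios, 1 had no overlap, *Pdk4* to *Pdha1*, 3.12-fold lower in Atg5-/- AT2-BLM (exact permutation p = 0.1), with *Pdk4* itself at 0.653, 1.15 and 2.00 FPKM in AT2-BLM. Among the markers, 1 of 4 airway markers was called higher, and 1 of 5 AT1 and 1 of 4 fibroblast markers lower. Their part was not tested.

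With PBS, loss of *Atg5* was likewise called in 0 of the 9 genes by limma, where 19.3% of all genes tested were called. Of the 9, 1 had an unadjusted p under 0.05, against 22.4%, and 2 had no overlap, against 28.9%. These 2 were *Fh1* and *Suclg1*. *Fh1* had a log2 change of 0.46 ± 0.18 (limma adjusted p = 0.14), under the fold limit, and was called higher with scaling to *Cdh1* (0.85) and without wild-type replicate 1 or without either of Atg5-/- replicates 1 and 2 (0.51 to 0.61). At its lowest it was 0.35 with a sample left out and 0.24 in the other alternatives, both not called. *Suclg1* had -0.38 ± 0.18 (limma adjusted p = 0.25), and was called lower with quantile normalization (-0.51), with a common sum (-0.60) and without AT2-PBS replicate 1 (-0.49), while with scaling to *Cdh1* it was 0.02. The other 7 genes lay between -0.26 for *Cs* and 0.07 for *Mdh2*. The median of the 9 was -0.13, that of all genes was 0.02, and with scaling to *Cdh1* they were 0.25 and 0.34. *Acly* fell by 0.93 (limma adjusted p = 0.046) and *Got1* rose by 1.22 (limma adjusted p = 0.010), and *Cs* to *Acly* was 1.59-fold higher and *Cs* to *Slc25a1*, the citrate carrier, 1.45-fold lower in geometric mean, both without overlap. *Gls2* (0.73), *Me2* (0.60) and *Lipt2* (0.91) were called higher and *Pdp2* (-0.55) lower. Their limma adjusted p was 0.17, 0.077, 0.14 and 0.22. Their calls were lost in 10, 5, 6 and 9 of 18 alternatives. *Acod1* rose by 3.33 (limma adjusted p = 5.7e-05), from at most 1.36 FPKM in AT2-PBS. All 6 leukocyte, all 4 fibroblast and all 6 liver markers tested were called higher with it. So were 3 of 4 airway, 2 of 3 cardiac muscle and 2 of 2 erythroid markers. Of 5 AT1 markers 2 were called higher and 1 lower, and of 7 AT2 markers 1 higher and 2 lower. The part of these markers was not tested. This comparison shares AT2-PBS with the first one, and the comparison during BLM shares AT2-BLM with it.

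Over the 12 samples the 9 genes did not vary as 1 block. AT2-BLM replicate 3 held the highest value of *Cs*, *Idh3a*, *Sucla2*, *Mdh2* and *Pdha1* and the lowest value of *Idh2*. As a description over samples that share groups and libraries, the Pearson correlation of each gene with the mean of the other 8 was 0.87 for *Idh3a*, 0.84 for *Pdha1* and 0.83 for *Cs*. It was 0.49 to 0.58 for *Mdh2*, *Fh1*, *Sucla2* and *Ogdh*, and -0.40 for *Suclg1* and -0.47 for *Idh2*. *Suclg1* and *Idh2*, the most abundant of the 9 after *Mdh2* in AT2-PBS, thus ran against the rest. Across 10612 other genes tested, the 5 closest to the mean of the 9 over the 12 samples were *Ankrd46* (r = 0.95), *Actr1a* (0.95), *Copg1* (0.94), *Eftud2* (0.94) and *Hibadh* (0.93).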

How the data were processed

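RNA-seq of 12 samples (4 groups of 3) was used. The authors sequenced TruSeq libraries on an Illumina HiSeq instrument and deposited FPKM per gene from Cufflinks on mm9. The paper names STAR as aligner, whereas the submitters' processing notes list HISAT2 2.2.1.0, Trimmomatic 0.36, HTSeq 0.9.1 and Cufflinks 2.2.1. Whether these FPKM include the DESeq normalization named in the paper is not given in the sources used here. Groups came from the sample labels. AT2-PBS replicate 3 was numbered by its title, from which its description differs.

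Of 21878 genes, 10675 reached 1 FPKM in 3 or more samples and were kept. Their log2(FPKM + 1) values went into limma 3.58.1 (R 4.3.3, lmFit and eBayes with a mean-variance trend, 4 group means). This scale understates changes of low genes. p-values were adjusted by Benjamini-Hochberg over all genes tested. Calls needed an unadjusted p under 0.05 together with a fold of 1.4 or more. Ratios within samples were compared with exact permutation tests (scipy 1.17.1). The script was tested on simulated data. Alternatives were a pseudocount of 0.1, no filter, 4 other scalings (quantile, median-ratio, common sum, *Cdh1*), a Y-linked covariate, a replicate block, no trend, only the groups compared, adjusted p, a fold limit of 2 and each sample left out. Coordinates are of GENCODE M1 on NCBIM37. Figures used matplotlib 3.10.9.

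The 9 genes and the lists were chosen with earlier results of these data known. Named beside the 9 were their partner subunits, genes of uncovered steps (1 of which is not reported here), up to 3 called genes of each list with the largest change, and the 5 genes most correlated with the 9. *Atg5* and *Sftpc* and, with BLM in AT2 and in the interaction, further called list genes were named after their values were seen.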

Additional observations from a re-analysis of the deposited data

Results flagged for a closer look

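For *Suclg1* and *Fh1* the interaction test of the BLM response between genotypes passed an unadjusted p under 0.05 with a fold of 1.4 or more. For *Suclg1* the log2 change with BLM in Atg5-/- AT2 minus that in AT2 was 0.68, from -0.56 in AT2 (3 of 3 AT2-BLM samples below all AT2-PBS samples) to 0.13 in Atg5-/- AT2. For *Fh1* the difference was -0.68, from 0.94 in AT2 (3 of 3 above) to 0.26. In limma the unadjusted p was 0.021 for both and the adjusted p was 0.14 and 0.15, so neither passed the correction over all genes. These were 2 of 9 genes, a share near the 20.2% that the interaction called over all genes tested. The difference of *Fh1* was -0.29 with a common sum and that of *Suclg1* 0.46 with scaling to *Cdh1*, both not called. Groups of 3 samples were too small for the test of single outlying samples.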

How the results depend on the processing

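With 3 samples a group and fragment numbers unknown, precision rests on the spread between samples, and neither the scaling of the samples nor Y-linked expression can be settled from these files. Of 45 results for the 9 genes, 6 kept direction and call in every alternative, 28 changed sign in at least 1, and 0 of the called ones changed sign. All 6 were results without a call in the main fit. Every called result lost its call in at least 1 alternative. The cause of these shifts was not tested. Values are log2 changes unless given as counts. For BLM in AT2, quantile normalization called 3 of the 9 (median 0.044, *Ogdh* -0.15, *Sucla2* -0.0085, *Suclg2* -0.086), a common sum 3 (median 0.056, *Ogdh* -0.13, *Suclg2* -0.078) and scaling to *Cdh1* 3 (median 0.047, *Ogdh* -0.14, *Sucla2* -0.0016, *Suclg2* -0.088), and median-ratio scaling gave a median of 0.090, *Ogdh* -0.094 and *Suclg2* -0.048. For *Atg5* loss during BLM, *Pdha1* was 0.018 with quantile normalization, a common sum gave a median of 0.0078 (*Sucla2*, the median gene) and *Pdha1* 0.077, and *Cdh1* a median of 0.0062 (*Sucla2* again) and *Pdha1* 0.075. For *Atg5* loss with PBS, quantile normalization called 1 (*Mdh2* -0.10), a common sum 1 (median -0.35, *Mdh2* -0.15) and *Cdh1* 1 (median 0.25, *Cs* 0.13, *Idh2* 0.36, *Idh3a* 0.24, *Ogdh* 0.25, *Sucla2* 0.24, *Suclg1* 0.015, *Pdha1* 0.29). For BLM in Atg5-/- AT2, quantile normalization and median-ratio scaling called 0, a common sum 2 (median 0.42, *Idh2* 0.077), and *Cdh1* gave a median of -0.20, *Cs* -0.0066, *Ogdh* -0.11, *Sucla2* -0.23, *Suclg1* -0.33, *Fh1* -0.20, *Mdh2* -0.21 and *Pdha1* -0.17. In the interaction, quantile normalization called 1 (median 0.19, *Cs* 0.19, *Idh3a* 0.036, *Sucla2* 0.19), median-ratio scaling moved *Cs* to 0.058 and *Sucla2* to 0.085, a common sum gave a median of 0.37, *Cs* 0.35, *Idh3a* 0.22, *Sucla2* 0.37 and *Mdh2* 0.055, and *Cdh1* called 1 (median -0.23, *Idh2* -0.0092, *Pdha1* -0.21). The Y-linked covariate left 0 called with BLM in Atg5-/- AT2 (*Idh2* 0.031, *Suclg1* -0.039) and 1 in the interaction (*Sucla2* 0.032). The ratio of group medians of *Cs* to *Slc25a1* with BLM in AT2 was -0.16.

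With adjusted p, limma called 3 of the 9 and 1856 of all genes for BLM in AT2, 1 gene in all for *Atg5* loss during BLM, 1195 with PBS, 0 of the 9 and 923 for BLM in Atg5-/- AT2, and 0 of the 9 and 842 in the interaction. With a fold limit of 2 the calls by limma were 0 of the 9 and 982, 101, 1113, 0 of the 9 and 914, and 0 of the 9 and 1328, in the same order. At an unadjusted p under 0.05 alone, 5, 2 and 2 of the 9 passed for BLM in AT2, BLM in Atg5-/- AT2 and the interaction. The split of higher and lower calls for *Atg5* loss during BLM moved from 218 and 333 to 281 and 244 with median-ratio scaling, 461 and 127 with a common sum and 355 and 90 with *Cdh1*. With PBS it moved from 1507 and 551 to 1177 and 1587 with quantile normalization, 1215 and 1231 with a common sum and 2731 and 79 with *Cdh1*. For BLM in Atg5-/- AT2 it moved from 818 and 1144 to 1148 and 1069 (quantile), 569 and 1287 (median-ratio), 1456 and 963 (common sum) and 118 and 2444 (*Cdh1*), and for the interaction from 536 and 1620 to 1362 and 1123, 782 and 1453, 1317 and 1067, and 212 and 1795.

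Leaving out 1 sample at a time gave 3 to 5 of the 9 called for BLM in AT2 (3 without AT2-PBS replicate 3; median 0.17 to 0.45, *Ogdh* -0.055 to 0.22), 0 to 1 for *Atg5* loss during BLM (1 without AT2-BLM replicate 1; *Idh2* -0.0058 to 0.31, *Pdha1* -0.26 to 0.049, *Ogdh* -0.0057 to 0.33), 0 to 2 with PBS (2 without AT2-PBS replicate 1, 1 without Atg5-/- AT2-PBS replicate 1 or 2; *Idh2* -0.087 to 0.021, *Ogdh* -0.29 to 0.022), 0 to 3 for BLM in Atg5-/- AT2 (0 without Atg5-/- AT2-PBS replicate 2 or Atg5-/- AT2-BLM replicate 3, 2 without Atg5-/- AT2-PBS replicate 3 or Atg5-/- AT2-BLM replicate 1, 3 without Atg5-/- AT2-BLM replicate 2) and 1 to 2 in the interaction (*Pdha1* -0.16 to 0.15, *Sucla2* -0.13 to 0.10, *Cs* -0.21 to 0.080). Among the ratios, *Idh2* to *Idh1* ranged from -0.0087 to 0.35 for *Atg5* loss during BLM and from -0.34 to 0.026 with PBS, *Mdh2* to *Mdh1* from -0.25 to 0.045 and *Pdha1* to *Pdhb* from -0.085 to 0.20 during BLM, and *Idh3a* to its partners from -0.23 to 0.0058 with PBS. With BLM in AT2, *Sucla2* to *Suclg2* ranged from -0.016 to 0.24, *Pdk4* to *Pdha1* from -1.0 to 0.021 and *Cs* to *Slc25a1* from -0.26 to 0.30, and with BLM in Atg5-/- AT2, *Suclg1* to both beta subunits from -0.15 to 0.25, *Pdha1* to *Pdhb* from -0.079 to 0.23 and *Cs* to *Acly* from -0.14 to 0.37.

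Deviations of same-numbered samples correlated at -0.24 to 0.23 across genes, and in no comparison were all above 0.1. With 3 samples a group, such values cannot show whether same-numbered samples were handled together, and the main fit used no pairing. With the replicate number as a block, limma called 3014 genes for BLM in AT2 (3031 without it), 558 for *Atg5* loss during BLM (551), 2055 with PBS (2058), 1959 for BLM in Atg5-/- AT2 (1962) and 2166 in the interaction (2156), and 5, 0, 0, 1 and 2 of the 9 genes, as without it.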

Other observations

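*Idh2* to its cytosolic counterpart *Idh1* was 2.03 in AT2-PBS, 1.43 in AT2-BLM, 1.89 in Atg5-/- AT2-PBS and 1.66 in Atg5-/- AT2-BLM in geometric mean, with overlapping samples in all 4 comparisons. *Sucla2* to *Suclg2* was 3.42, 3.66, 2.52 and 3.27 in the same order of groups, and *Pdha1* to *Pdhb* was 0.526, 0.470, 0.468 and 0.495, again with overlap in all 4 comparisons. *Dlst* was at 17.0, 15.8 and 23.3 FPKM with PBS and at 18.9, 22.8 and 30.8 FPKM with BLM in Atg5-/- cells, with overlapping ranges, beside 24.0, 32.8 and 29.7 FPKM in AT2-BLM.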
